A study of Mesocricetus auratus with 21 samples.

Results

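Mael, Henmt1 and Tex15 are 3 factors of the PIWI-interacting RNA (piRNA) pathway that are neither PIWI proteins nor Tudor-domain proteins. They were chosen by name and make up 3 of the 22285 genes in a table of read counts from golden hamster (Mesocricetus auratus) whole testis. Mael has the identifier ENSMAUG00000021599 and lies on scaffold KB708154.1 at 14839096 to 14864953 on the minus strand of the MesAur1.0 assembly. Henmt1 is ENSMAUG00000000805, at 1427 to 13412 on the plus strand of contig APMT01210298.1. Tex15 is ENSMAUG00000013992, at 10139454 to 10177627 on the plus strand of scaffold KB708134.1. The identifiers were taken from the study's lists of genes that differed between the genotypes in these samples, which include 9 days postpartum (d.p.p.). The directions and calls of the 3 genes are thus not independent evidence.

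piRNAs are small RNAs of the germ line that guide PIWI proteins to transposon transcripts and, in pachytene spermatocytes, arise in large amounts from dedicated loci. MOV10L1 is an RNA helicase that feeds precursor transcripts into piRNA production. MAEL acts in transposon silencing and in the handling of piRNA precursors in germ cell granules, HENMT1 is the methyltransferase that modifies the 3′ end of mature piRNAs, and TEX15 acts in the nucleus of fetal male germ cells, where PIWIL4 directs the silencing of transposons. In mice, loss of any of these genes leads to male sterility.

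The animals were wild type (WT) or homozygous for a deletion of exon 20 of Mov10l1 (Mov10l1-/-). The deletion was made by CRISPR-Cas9 in electroporated embryos, and 1 founder female transmitted the allele used, which was crossed to outbred WT animals for 2 generations before heterozygotes were mated. Each genotype had 2 libraries at 0, 9, 13 and 21 d.p.p. and in adults, plus WT replicate 3 at 9 d.p.p., a library that the study left aside and that entered only where all 5 libraries of that age are named or where its value is printed. Adults were 65 and 23 weeks of age in the WT group and 63 and 53 weeks of age in the Mov10l1-/- group. Animals of 0 and 9 d.p.p. were sequenced with single-end reads of 75 nucleotides and all others with paired-end reads of 150 nucleotides, so the step from 9 to 13 d.p.p. was not tested, because read layout and age cannot be told apart there. A single animal code is given for the pair of Mov10l1-/- libraries at 9 d.p.p., so what varies between these libraries is not animal-to-animal variation. The code of that animal shares its prefix with WT replicate 3 of 9 d.p.p. and not with WT replicates 1 and 2, and at 0 d.p.p. the genotypes share no prefix either. What the prefix stands for is not given in the sources used here, so prefix and genotype cannot be told apart in the comparisons of 2 with 2 libraries at these ages. The guide targets are shown because they define the allele that all Mov10l1-/- animals carry; the first pair lies in intron 19 and the second pair in intron 20, in lower case throughout:
guide target 1: gggtatcacatgacttgggg
guide target 2: ggtgttgggatcatagtgggg
guide target 3: tctccactcttccatgtgggg
guide target 4: taccattacatttgtcagggg

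Libraries held 3550217 to 77527451 counts, and the gene with the most counts took 2.68% to 23.7% of them. Levels are given as CPM, which is the count divided by the library's total and brought to a common scale over all 21 libraries with TMM factors, and are not divided by gene length, so they are compared for a gene across libraries and not between genes. Mov10l1, the targeted gene, lay below the WT range of its age in each Mov10l1-/- library. Its mean was 15.5% of WT at 0 d.p.p., 4.19% at 9 d.p.p., 1.15% at 13 d.p.p., 0.101% at 21 d.p.p. and 3.64% in adults. These counts cover all exons of the gene and not the deleted exon alone. The germ cell genes Ddx4 and Dazl were detected in all libraries, down to 2 counts of Ddx4 in a mutant library of 21 d.p.p.

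The group means of the 3 genes were 115% to 200% of WT in newborn Mov10l1-/- testis and below WT at every later age, but to very different extents. Mael was 39.5% of WT at 9 d.p.p., 11.2% at 13 d.p.p., 0.366% at 21 d.p.p. and 0.468% in adults, whereas Henmt1 lay between 29.8% and 45.9% and Tex15 between 15.4% and 49.5% over the 4 later ages. In whole testis, fewer germ cells and less RNA per germ cell cannot be told apart.

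Mael had the widest range of the 3 genes. In WT testis it was at 110 and 104 CPM at 0 d.p.p., 18.6, 18.2 and 16.2 CPM at 9 d.p.p., and 45.5 and 21.5 CPM at 13 d.p.p. Later it reached 242 and 146 CPM at 21 d.p.p. and 1786 and 2159 CPM in adults. The WT level was thus lowest at 9 d.p.p. and highest in adults, and the ranges of the 5 WT ages did not overlap.

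In Mov10l1-/- testis Mael was at 144 and 116 CPM at 0 d.p.p., 7.05 and 7.49 CPM at 9 d.p.p., and 6.18 and 1.34 CPM at 13 d.p.p. The level at 21 d.p.p. was 0.956 and 0.462 CPM, which is 15 and 16 counts, and adults held 11.2 and 7.28 CPM. No Mov10l1-/- library overlapped the WT libraries of its age, with the mutants higher at 0 d.p.p. and lower at the other ages. With so few libraries such a separation can arise by chance, here and for Henmt1 and Tex15. The share of all genes that show it was not counted. Among Mov10l1-/- groups, neighbouring levels overlapped only between adults and 9 d.p.p.

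Henmt1 gave 13 to 520 counts in a library. Its WT level was 4.57 and 2.56 CPM at 0 d.p.p., 2.42, 2.3 and 2.03 CPM at 9 d.p.p., and 1.9 and 3.78 CPM at 13 d.p.p. At 21 d.p.p. it was 6.92 and 5.72 CPM, and in adults 12.4 and 10.4 CPM. Adults were thus highest and 21 d.p.p. next, while the WT range of 13 d.p.p. overlapped those of 0 and 9 d.p.p.

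Mov10l1-/- testis held 7.68 and 6.56 CPM of Henmt1 at 0 d.p.p., 1.09 and 1.08 CPM at 9 d.p.p., and 0.873 and 0.822 CPM at 13 d.p.p. The level was 2.74 and 1.94 CPM at 21 d.p.p. and 4.42 and 4.37 CPM in adults. The genotypes did not overlap at any age, with both newborn mutants above both newborn WT animals. The differences at 0 and 13 d.p.p. did not pass the main test given below. The libraries of 13 d.p.p. held 19 and 16 counts of Henmt1 in WT and 13 and 27 in Mov10l1-/-, which limits the precision at that age.

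Tex15 was highest at birth in both genotypes. WT testis held 584 and 460 CPM at 0 d.p.p., 126, 108 and 103 CPM at 9 d.p.p., and 205 and 89.4 CPM at 13 d.p.p. It held 264 and 205 CPM at 21 d.p.p. and 149 and 177 CPM in adults. The WT level of 13 d.p.p. spanned the levels of 9 d.p.p. and of adults, which did not overlap each other.

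In Mov10l1-/- testis Tex15 was at 655 and 550 CPM at 0 d.p.p., 54.1 and 61.8 CPM at 9 d.p.p., and 32.2 and 20.2 CPM at 13 d.p.p. At 21 d.p.p. the mutants held 37.9 and 34.5 CPM and as adults 36.9 and 38.4 CPM. The genotypes overlapped at 0 d.p.p. only. The mutant levels of 21 d.p.p. and adults overlapped each other, and Tex15 had at least 479 counts in each mutant library.

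**Figure D1:**
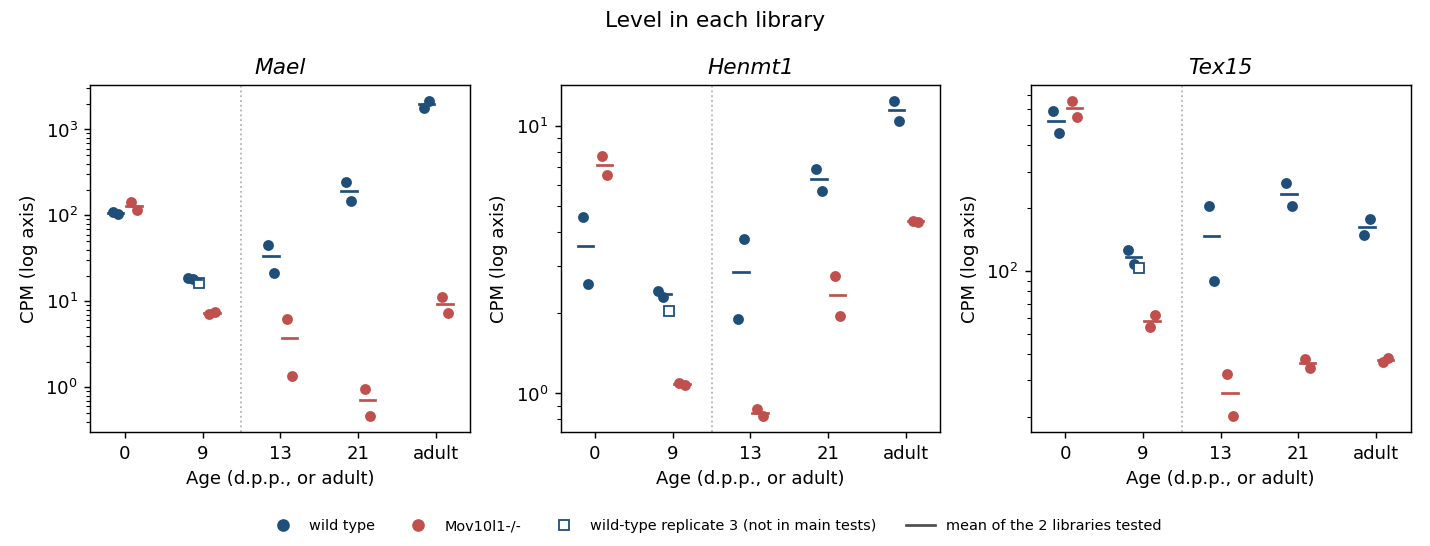
Level of Mael, Henmt1 and Tex15 in each of the 21 libraries, as CPM on a log axis, by age. Points are libraries, bars the mean of the 2 libraries tested, and the dotted line separates single-end from paired-end ages. Mael in Mov10l1-/- testis sits below 12 CPM from 9 d.p.p. on, while Tex15 stays at or above 20.2 CPM.

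Genotypes were set against each other at each age with the quasi-likelihood test of edgeR, whose p-values were adjusted over all genes by Benjamini-Hochberg. A gene was called at an adjusted p below 0.01, the threshold of the study. At 0 d.p.p. none of the 3 genes was called, against 1.93% of all genes, and none was called by DESeq2. Of the 3, 2 had an unadjusted p below 0.05 by edgeR, as had 3651 of 16333 genes. The log2 fold change of Mov10l1-/- over WT was 0.95 for Henmt1 (SE 0.24, adjusted p = 0.0347 by edgeR), 0.27 for Mael (SE 0.124, adjusted p = 0.223) and 0.20 for Tex15 (SE 0.148, adjusted p = 0.483). The 95% interval for Henmt1 ran from 0.43 to 1.47. Without a filter on low counts Henmt1 passed the threshold with an adjusted p of 1.0e-04 and a log2 fold change of 0.96, and so it did without WT replicate 1 (1.45, adjusted p = 0.0013 by edgeR) or without Mov10l1-/- replicate 2 (1.04, adjusted p = 0.00785). The summed level of 13 germ cell markers at this age was 459 and 395 CPM in WT and 602 and 477 CPM in Mov10l1-/-. The markers did not move together, with 2 of the 13 called higher, 1 lower and 10 not called. The part of this level in the result was not tested.

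At 9 d.p.p. all 3 genes were lower in Mov10l1-/- testis, where 3.19% of all genes were called lower, or 1189 of 15961 without WT replicate 2. The log2 fold change was -1.37 for Mael (SE 0.0863, adjusted p = 2.1e-04 by edgeR), -1.16 for Henmt1 (SE 0.162, adjusted p = 0.00485) and -1.05 for Tex15 (SE 0.0925, adjusted p = 7.7e-04). The 95% intervals were -1.57 to -1.18, -1.53 to -0.78 and -1.26 to -0.83. With both Mov10l1-/- libraries summed into 1, as they come from 1 animal, and set against the 3 WT libraries, no gene of the 3 was called, with adjusted p of 0.0361, 0.203 and 0.059 by edgeR. None of 16267 genes was called in that fit, where 1525 had an unadjusted p below 0.05, and DESeq2 was not run on it. With all 5 libraries kept apart, Henmt1 lost its call (-1.09, adjusted p = 0.0226 by edgeR), and 0.342% of all genes were called lower. Henmt1 also lost it without Mov10l1-/- replicate 1 (adjusted p = 0.0123) or replicate 2 (adjusted p = 0.0103 by edgeR).

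At 13 d.p.p. the differences were larger but not called, with log2 fold changes of -3.29 for Mael (SE 0.705, adjusted p = 0.0769 by edgeR), -1.80 for Henmt1 (SE 0.599, adjusted p = 0.319) and -2.58 for Tex15 (SE 0.448, adjusted p = 0.0427). Only 0.121% of all genes were called at this age. The 3 genes each had an unadjusted p below 0.05 by edgeR, as had 1343 of 13254 genes. DESeq2 called 267 of 16139 genes, among them Mael (adjusted p = 2.9e-05) and Tex15 (adjusted p = 6.0e-06). In a joint fit of the 12 paired-end libraries, which called 342 of 16568 genes, Mael and Tex15 were also called, with adjusted p of 0.00869 and 0.00132 by edgeR. At this age replicates 1 of both genotypes share a code prefix, as do replicates 2. A fit blocked on replicate number called 477 of 13254 genes, among them Mael (-3.50, adjusted p = 3.5e-15 by edgeR) and Tex15 (-2.52, adjusted p = 1.0e-09). Both were also called without the block when leaving out WT replicate 2 (adjusted p = 0.00721 and 4.0e-04 by edgeR) or Mov10l1-/- replicate 1 (adjusted p = 1.1e-06 and 0.00309). WT replicate 2, the smallest library of the series, was below WT replicate 1 in Mael and Tex15 and above it in Henmt1.

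At 21 d.p.p. all 3 genes were called lower, against 20.9% of all genes, or 1764 of 14993 without Mov10l1-/- replicate 2. The log2 fold change was -8.40 for Mael (SE 0.434, adjusted p = 1.2e-05 by edgeR), -2.87 for Tex15 (SE 0.218, adjusted p = 5.4e-05) and -1.62 for Henmt1 (SE 0.327, adjusted p = 0.00412). Henmt1 lost its call without Mov10l1-/- replicate 2, where its change was -1.37 with an adjusted p of 0.0338 by edgeR. The 95% intervals were -9.40 to -7.39 for Mael, -3.37 to -2.36 for Tex15 and -2.37 to -0.86 for Henmt1.

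In adults all 3 genes were again called lower, at an age where 37.2% of all genes were. The log2 fold change was -7.77 for Mael (SE 0.301, adjusted p = 7.0e-07 by edgeR), -2.14 for Tex15 (SE 0.14, adjusted p = 8.1e-06) and -1.40 for Henmt1 (SE 0.196, adjusted p = 4.1e-04). Size factors of the RLE type moved the median of all genes by -0.20 in this comparison, and under them the changes were -7.97, -2.34 and -1.60, all still called.

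**Figure D2:**
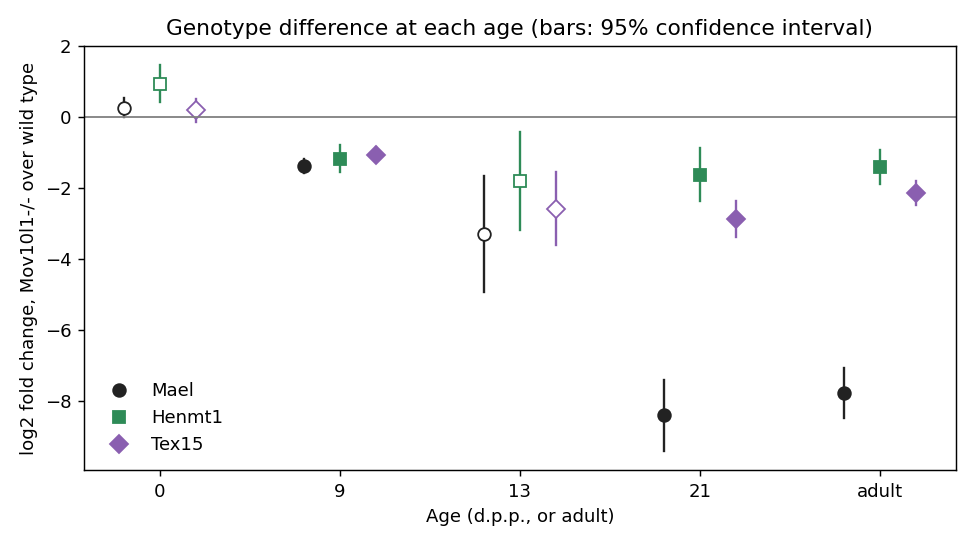
Log2 fold change of Mov10l1-/- over WT at each age for Mael, Henmt1 and Tex15, with 95% confidence intervals. Filled symbols passed an adjusted p below 0.01 by edgeR. Mael reaches -8.40 at 21 d.p.p., while Henmt1 does not go below -1.80 at any age.

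A single test over the 5 ages, in which genotype was permuted within each age over 20 libraries, gave a lower mean level in Mov10l1-/- for each gene. Here and in the ratios below, the Mov10l1-/- libraries of 9 d.p.p. were permuted as 2 units, although they come from 1 animal. The mean over ages of the log2 difference was -3.84 for Mael (exact two-sided permutation p = 0.00154, adjusted p = 0.00278 over the 9 tests of the family). It was -1.59 for Tex15 (exact permutation p = 0.00129, adjusted p = 0.00278) and -0.74 for Henmt1 (exact permutation p = 0.0154, adjusted p = 0.0174). Each gene was lower at 4 of 5 ages, the exception being 0 d.p.p. For Henmt1 the adjusted p rose above 0.05 without adults (-0.61, adjusted p = 0.0868 by exact permutation) and without WT replicate 1 of 0 d.p.p. (-0.67, adjusted p = 0.0544).

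The same test on log2 ratios within a library asked whether the genes differed between the genotypes by unequal amounts. Relative to Henmt1, Mael was lower in Mov10l1-/- by a mean of -3.10 on the log2 scale (exact permutation p = 2.6e-04, the smallest these permutations can give, adjusted p = 0.00116), at 5 of 5 ages. Relative to Tex15, Mael was lower by a mean of -2.25 (exact permutation p = 0.00206, adjusted p = 0.00309), at 4 of 5 ages. The ratio of Henmt1 to Tex15 was higher in Mov10l1-/- by 0.85 (exact permutation p = 0.00154, adjusted p = 0.00278). It was higher at 5 of 5 ages with 0.5 CPM added to each level. With 0.1 CPM added the mean was 0.73 (exact permutation p = 0.00694, adjusted p = 0.0104), and 1 of 5 ages was negative. The added constant draws the differences of Henmt1, a gene of low level, toward 0. At 9 d.p.p. Henmt1 differed by -0.85 with 0.5 CPM added and by -1.06 with 0.1 CPM, against -1.01 for Tex15 with either. The groups overlapped at 9 and 13 d.p.p., where the difference was 0.15, or -0.04 with a pseudocount of 0.1 CPM, and 1.14, or 0.12 without WT replicate 1 of 13 d.p.p. The signed mean over the 5 ages was thus lowest for Mael and closest to 0 for Henmt1. The positive value of Henmt1 at 0 d.p.p. (0.95) offsets part of its later negative ones. With 0.1 CPM added the means were -4.02 for Mael, -1.60 for Tex15 and -0.87 for Henmt1. The order was not the same at each age, since the log2 fold change of Henmt1 was the highest of the 3 at 0 d.p.p. and lay below that of Tex15 at 9 d.p.p.

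Ddx4, the germ cell RNA helicase also known as VASA, served as a germ cell gene to set the 3 genes against. In WT it was at 99.7 and 74.3 CPM at 0 d.p.p., 240 to 379 CPM at 21 d.p.p. and 728 and 833 CPM in adults. In Mov10l1-/- it was at 107 and 81.4 CPM at 0 d.p.p., 0.127 and 0.376 CPM at 21 d.p.p., or 2 and 13 counts, and 5.81 and 4.71 CPM in adults. Its log2 fold change was -1.71 at 9 d.p.p., -10.20 at 21 d.p.p. and -7.24 in adults, all called.

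Against Ddx4, Mael did not differ detectably between the genotypes. The mean log2 difference of the ratio was 0.18 (exact permutation p = 0.512, adjusted p = 0.512), negative at 2 of 5 ages, which does not show that both genes moved alike. At 21 d.p.p. the ratio was -0.64 and -0.72 in WT and 1.21 and 0.14 in Mov10l1-/-, and in adults 1.29 and 1.37 in WT and 0.89 and 0.58 in Mov10l1-/-. The mutants were thus above WT at 21 d.p.p. and below it in adults. In mutants of 21 d.p.p. both genes lay near the 0.5 CPM added before the ratio was taken. The size of the ratio there thus depends on that constant. The mean difference at 21 d.p.p. was 1.36, or 1.91 with 0.1 CPM added and 1.12 with 1 CPM added.

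Henmt1 and Tex15 were higher relative to Ddx4 in Mov10l1-/- testis at 5 of 5 ages. For Henmt1 the mean log2 difference was 3.28 (exact permutation p = 2.6e-04, adjusted p = 0.00116), and for Tex15 it was 2.43 (exact permutation p = 0.00926, adjusted p = 0.0119). With 0.1 CPM added in place of 0.5 CPM these means were 3.47 and 2.74. At 21 d.p.p. the log2 ratio of Tex15 to Ddx4 was -0.52 and -0.23 in WT and 5.93 and 5.32 in Mov10l1-/-. In adults it was -2.29 and -2.23 in WT and 2.56 and 2.90 in Mov10l1-/-. The genotypes overlapped in this ratio at 0 and 13 d.p.p. Without adults the value for Tex15 was 1.79 with an adjusted p of 0.0714 in the exact permutation test.

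**Figure D3:**
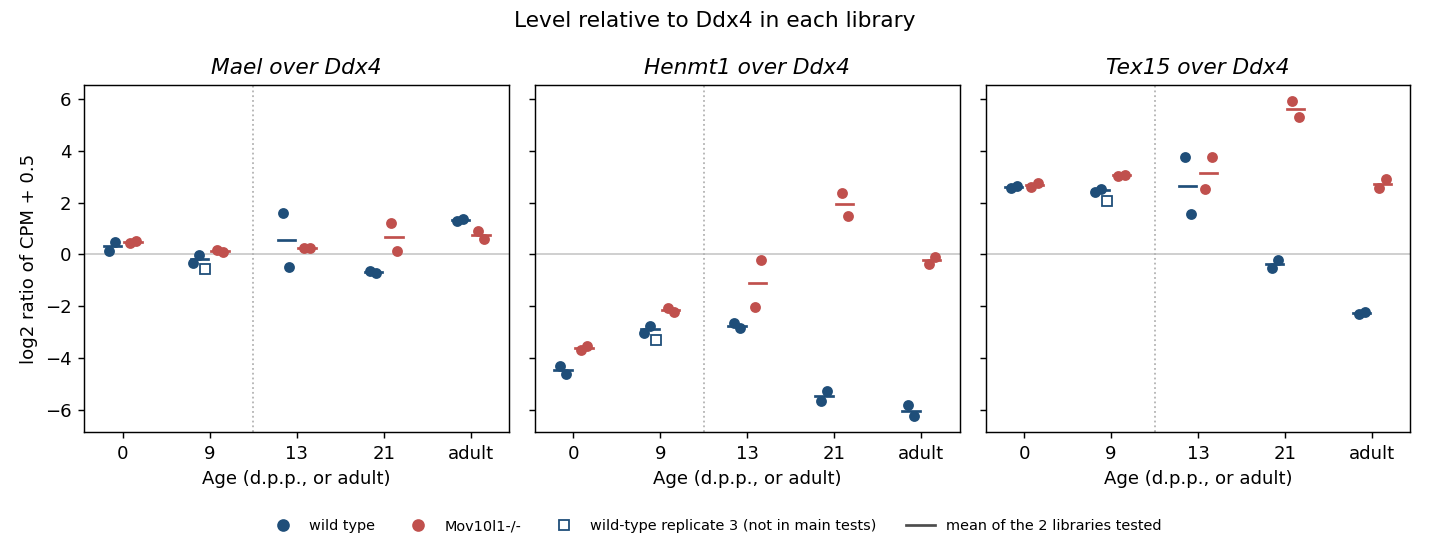
Log2 ratio of CPM + 0.5 of Mael, Henmt1 and Tex15 to that of Ddx4 in each library, by age, with the same symbols as the plot of levels. The ratio of Mael lies between -0.72 and 1.60 in all 21 libraries, while those of Henmt1 and Tex15 are several log2 units higher in Mov10l1-/- at 21 d.p.p. and in adults. In mutants of 21 d.p.p., where Ddx4 was at 0.127 and 0.376 CPM, the ratios depend on the 0.5 CPM added.

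Markers of some other cell types differed between the genotypes at some ages. Of 9 Sertoli cell markers, 2 had an identifier, Inha and Sox8. In newborns both were called lower in Mov10l1-/- (-0.77 and -0.83), with a summed level of 104 and 129 CPM in WT against 69.6 and 67 CPM in Mov10l1-/-. The order was reversed later, with 357 to 455 CPM against 546 and 572 CPM at 9 d.p.p. and 523 and 249 CPM against 835 and 688 CPM at 13 d.p.p., where neither gene was called. Both were called higher at the remaining ages, with sums of 202 and 247 CPM in WT against 1026 and 1089 CPM in Mov10l1-/- at 21 d.p.p., and 74.4 and 53.5 CPM against 523 and 791 CPM in adults. All 13 germ cell markers had an identifier. Marker symbols come from the study's lists of genes that differed between the genotypes, so neither the directions nor the shares called are independent evidence. The sum of the 13 germ cell markers was 1728 and 1815 CPM in WT adults and 261 and 256 CPM in Mov10l1-/- adults. Its largest part was Ddx4 in WT adults (728 to 833 CPM). In Mov10l1-/- adults it was Kit (130 to 134 CPM, against 10.7 to 12.7 CPM in WT), so different genes carried the sums. At 9 d.p.p. all 13 were called lower (3 with all 5 libraries), against 3.19% of all genes. In adults 3 were called higher and 5 lower, where 37.1% of all genes were called higher and 37.2% lower. For 5 markers of meiotic and later germ cells the sum at 21 d.p.p. was 1226 and 965 CPM in WT and 5.93 and 6.5 CPM in Mov10l1-/-. The part of cell composition in the differences of Mael, Henmt1 and Tex15 was not tested.

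Between birth and 9 d.p.p., Mael and Tex15 fell in WT and all 3 genes fell in Mov10l1-/-. In WT, where 24.8% of all genes were called lower, the log2 fold change over this step was -2.51 for Mael (SE 0.116, adjusted p = 3.7e-08 by edgeR) and -2.13 for Tex15 (SE 0.145, adjusted p = 4.3e-07). The value for Henmt1 in WT was -0.60 (SE 0.235, adjusted p = 0.0409), or -0.91 without WT replicate 2 of 0 d.p.p. (adjusted p = 0.0027) and -0.09 without WT replicate 1 of that age (adjusted p = 0.749). In Mov10l1-/-, where 30.7% of all genes were called lower, the values were -4.13 for Mael (adjusted p = 2.7e-09 by edgeR), -3.35 for Tex15 (adjusted p = 1.6e-08) and -2.68 for Henmt1 (adjusted p = 1.9e-06).

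The difference between these steps was itself tested as an interaction in the 8 single-end libraries, where 3.1% of all genes were called with a lower mutant step. All 3 genes were called, with values of -1.62 for Mael (SE 0.161, adjusted p = 3.2e-04 by edgeR), -2.08 for Henmt1 (SE 0.339, adjusted p = 0.00334) and -1.22 for Tex15 (SE 0.198, adjusted p = 0.00333). With the Mov10l1-/- libraries of 9 d.p.p. summed and WT replicate 3 included, none was called, with adjusted p of 0.0137, 0.0364 and 0.038 by edgeR. In that fit 4 of 17342 genes were called. Henmt1 also lost its call without any 1 of the 4 libraries of 9 d.p.p. (adjusted p up to 0.0172 by edgeR), and Tex15 without WT replicate 2 of 0 d.p.p., WT replicate 1 of 9 d.p.p. or Mov10l1-/- replicate 1 of 9 d.p.p. (adjusted p up to 0.0217).

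From 13 to 21 d.p.p. Mael parted between the genotypes. It rose by 2.43 on the log2 scale in WT (SE 0.568, adjusted p = 0.0087 by edgeR), where 6.4% of all genes were called higher. In Mov10l1-/- its value was -2.50 (SE 0.719, adjusted p = 0.0381), so the steps differed by -4.93 (SE 0.911, adjusted p = 0.00556 by edgeR), a call shared by 3.43% of all genes with a lower mutant step. The WT call was lost when any of the 4 WT libraries was left out, with adjusted p up to 0.0545, and the interaction in 5 of 8 such fits, with adjusted p up to 0.0453 by edgeR. The latter fits lacked WT replicate 2 or Mov10l1-/- replicate 1 of 13 d.p.p., WT replicate 1 of 21 d.p.p. or either Mov10l1-/- replicate of 21 d.p.p.

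Henmt1 and Tex15 had interaction intervals that spanned 0 over this step. For Henmt1 the values were 1.16 in WT (adjusted p = 0.039 by edgeR) and 1.38 in Mov10l1-/- (adjusted p = 0.0276), with an interaction of 0.21 and an interval of -0.91 to 1.33. For Tex15 they were 0.58 (adjusted p = 0.249) and 0.40 (adjusted p = 0.473), with an interaction of -0.18 and an interval of -1.22 to 0.86. None of the 3 genes was called in the mutant step by edgeR, where 5.52% of all genes were. Of the 3, 2 had an unadjusted p below 0.05 by edgeR, as had 4731 of 16568 genes. DESeq2 called 1 of the 3, Mael, and 1814 of 15500 genes in all. Single libraries moved calls here too, since WT Henmt1 was called without WT replicate 2 of 13 d.p.p. (1.74, adjusted p = 0.00609 by edgeR), WT Tex15 without WT replicate 1 of 13 d.p.p. (1.36, adjusted p = 0.00721) and mutant Mael without Mov10l1-/- replicate 2 of 13 d.p.p. (-3.28, adjusted p = 0.006).

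From 21 d.p.p. to adults Mael rose in both genotypes, by 3.13 on the log2 scale in WT (SE 0.575, adjusted p = 5.2e-04 by edgeR) and by 3.72 in Mov10l1-/- (SE 0.697, adjusted p = 0.00241). Of all genes, 23.9% were called higher over this step in WT and 7.69% in Mov10l1-/-. The WT call was lost without WT replicate 2 of 21 d.p.p. (2.83, adjusted p = 0.0104 by edgeR), and the mutant call without either Mov10l1-/- replicate of 21 d.p.p. or without Mov10l1-/- replicate 1 of the adults (adjusted p up to 0.0458). The mutant rise led from 0.709 ± 0.349 to 9.24 ± 2.77 CPM (SD, n = 2). Henmt1 (0.64 in WT and 0.84 in Mov10l1-/-) and Tex15 (-0.75 and -0.03) were not called. None of the 3 interactions was called by edgeR or DESeq2, while edgeR called 29.8% of all genes. None of the 3 had an unadjusted p below 0.05 by edgeR, against 8882 of 16568 genes. The intervals were -1.28 to 2.47 for Mael, -0.77 to 1.17 for Henmt1 and -0.32 to 1.75 for Tex15.

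Of 24 other genes in a list of the piRNA pathway, 15 had an identifier. The symbols come from the study's lists of genes that differed between the genotypes on these samples. Neither their directions nor their shares called are thus independent evidence. Genes without a symbol could not enter, so the shares of all genes printed beside them do not show enrichment. At 0 d.p.p. 1 of the 15 was called higher, Btbd18, and none lower, against 1.93% of all genes in either direction. At 9 d.p.p. 13 of 15 were called lower (5 with all 5 libraries), against 3.19% of all genes, with a median log2 fold change of -1.62 over the list and -0.01 over all genes. At 13 d.p.p. 1 of 14 tested was called lower, Gpat2, against 0.121% of all genes, with a median of -3.86 against 0.02. At 21 d.p.p. 14 of 14 tested were called lower, against 20.9% of all genes, with a median of -8.26 against 0.04. In adults 14 of 14 were, against 37.2% of all genes, with a median of -4.88 against 0.14. Over the interaction from 0 to 9 d.p.p. 10 of 15 were called with a lower mutant step, against 3.1% of all genes, and over that from 13 to 21 d.p.p. 6 of 15, against 3.43%. Btbd18 and Gpat2 were chosen after their values were seen.

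Beside the PIWI genes, which encode the proteins that bind piRNAs, the change of Mael at 21 d.p.p. lay between the extremes. The log2 fold change was -10.13 for Piwil1, -9.37 for Piwil2 and -4.88 for Piwil4, against -8.40 for Mael, all called. In adults the values were -8.63, -5.13 and -1.17, against -7.77 for Mael, -2.14 for Tex15 and -1.40 for Henmt1.

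Tdrd1 and Tdrd9 encode Tudor-domain proteins of the piRNA granules, and Rnf17 a further one. Their log2 fold changes at 21 d.p.p. were -9.22, -8.63 and -8.52, against -8.40 for Mael. The other Tudor-domain genes with an identifier, Tdrd5 and Tdrd7, were named after their values were seen and stood at -5.35 and -2.63, the latter near -2.87 for Tex15. Gtsf1, which encodes a zinc-finger partner of PIWI proteins, was at -9.24. Pnldc1, which encodes the exonuclease that trims piRNA 3′ ends before HENMT1 methylates them, was at -3.95 at 21 d.p.p. and -5.43 in adults, against -1.62 and -1.40 for Henmt1. Differences in log2 fold change between these genes and the 3 genes were not tested.

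**Figure D4:**
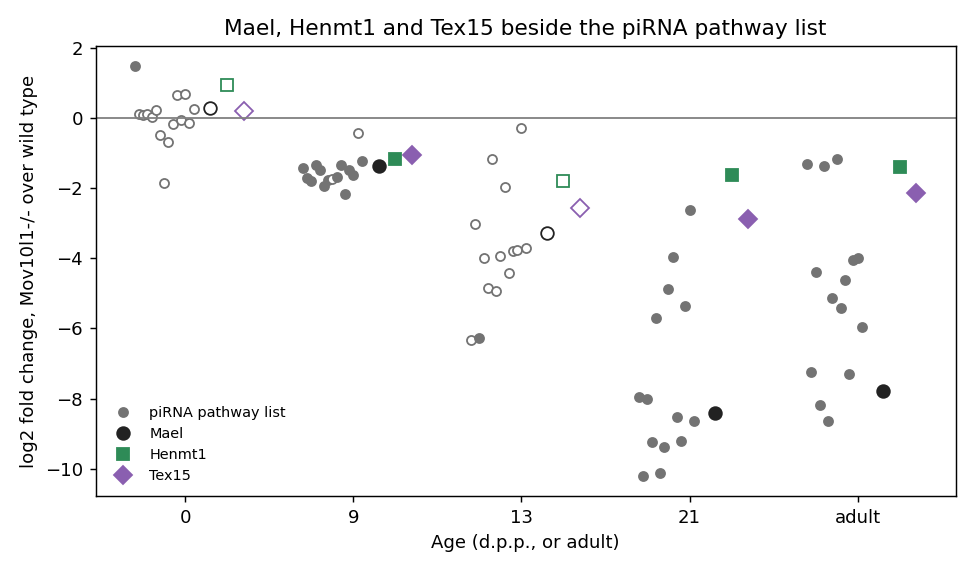
Log2 fold change of Mov10l1-/- over WT at each age for the 15 genes of the piRNA pathway list that had an identifier (grey) and for Mael, Henmt1 and Tex15. Filled symbols passed an adjusted p below 0.01 by edgeR. At 21 d.p.p. Mael at -8.40 lies among the list genes, while Henmt1 at -1.62 lies above all 14 of them.

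Likeness of pattern was measured as Pearson's r of log2(CPM + 0.5) over the 21 libraries, among 14434 genes whose mean was 1 CPM or more. The points share libraries and span large differences in age, read layout and depth, so r is a description. The genes with a symbol most like Mael were Fam178b (r = 0.99), Sox30 (0.98), Ddx4 (0.97), Ddx25 (0.97) and 1700020N01Rik (0.97), and no gene without a symbol ranked above the fifth of them. For Tex15 they were B4galt2 (0.96), Shroom3 (0.96), Lpcat4 (0.95), Taf4b (0.95) and Morc1 (0.94).

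For Henmt1 the likeness was weaker. Its genes were Dock3 (r = 0.94), Syt14 (0.90), Rell2 (0.90), Fbxw7 (0.90) and Atp8b5 (0.90), and 16 genes without a symbol ranked above the fifth. An r above 0.9 was reached by 151 genes for Mael, 40 for Tex15 and 16 for Henmt1. The part of the low counts of Henmt1, 13 to 520 in a library, in its lower r was not tested. Among the 3 genes, r was 0.80 for Mael and Henmt1, 0.75 for Mael and Tex15 and 0.58 for Henmt1 and Tex15. Without adults these values were 0.75, 0.92 and 0.79 over 17 libraries, so the likeness of Tex15 to the other two was higher among the juvenile ages.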

How the data were processed

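The authors aligned reads of testis RNA (rRNA-depleted by the protocol, polyA by the molecule label) to MesAur1.0 with STAR 2.7.3a and counted them by strand over Ensembl exons with featureCounts 2.0.0, sharing multi-mapping and overlapping reads as fractions. The deposited estimated counts are not normalized. Reads from near-identical copies can be split among genes. The counts were rounded to whole numbers. Symbols for 1044 of the 22285 genes came from the study's tables, and 9 of the 24 genes of the piRNA pathway list and most somatic markers are not analysed here.

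edgeR 4.0.16 in R 4.3.3 (TMM, filterByExpr, quasi-likelihood, Benjamini-Hochberg) gave the tests, fitted per age, or per read layout for steps and interactions. It was tested on simulated data. Alternatives were RLE factors, DESeq2 1.42.0, other count filters, a replicate block, joint fits, other 9 d.p.p. library sets and leaving out each library. Permutation tests used log2(CPM + 0.5) in Python 3.11.15. The edgeR p-values set a difference against the spread between libraries, and the permutation p-values against the permuted differences. For Mov10l1-/- at 9 d.p.p. that spread is between libraries of 1 animal.

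The text names Mael, Henmt1 and Tex15, Mov10l1 as a check, 8 chosen pathway genes, Ddx4 and Dazl, and for each of the 3 the 5 genes with a symbol that were most like it. The pathway genes Btbd18, Gpat2, Tdrd5 and Tdrd7 and the markers Inha, Sox8, Myh11, Csf1r and Kit were added after their values were seen. These genes, the lists and the tests were chosen with earlier results of these data known. Same-numbered libraries were not taken as pairs, since their deviations correlated at between -0.19 and 0.15. Nor does any source used here say what the code prefixes shared between genotypes at 13 and 21 d.p.p. mean. At 21 d.p.p. WT replicate 2 and Mov10l1-/- replicate 1 share a prefix, and the block on replicate number does not pair them.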

Additional observations from a re-analysis of the deposited data

Results flagged for a closer look

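For 4 results the genotype difference changed between ages by a direct test of that change, the interaction term in edgeR with Benjamini-Hochberg adjustment. Between 0 and 9 d.p.p. the log2 step in Mov10l1-/- minus that in WT was -1.62 for Mael, -2.08 for Henmt1 and -1.22 for Tex15. The Mov10l1-/- libraries of 9 d.p.p. come from 1 animal, and none of the 3 values was called with them summed. Between 13 and 21 d.p.p. the value for Mael was -4.93. No group had enough libraries for a test of single outlying libraries.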

How the results depend on the processing

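No result changed direction while called in any fit. Without a filter on low counts Henmt1 at 0 d.p.p. was 0.96, Mael at 13 d.p.p. -3.16, Tex15 at 13 d.p.p. -2.45 and the mutant step of Mael from 13 to 21 d.p.p. -2.55, all called. DESeq2 called Mael (-3.19) and Tex15 (-2.51) at 13 d.p.p. and the mutant step of Mael from 13 to 21 d.p.p. (-2.58). Joint fits by read layout called Mael (-3.28) and Tex15 (-2.53) at 13 d.p.p. and lost Henmt1 at 9 d.p.p. (-1.15), as did all 5 libraries of that age (-1.09). Summing the Mov10l1-/- libraries of 9 d.p.p. gave -1.31 for Mael, -1.09 for Henmt1 and -0.99 for Tex15, and interactions of -1.57, -2.03 and -1.16, none called; the summed interaction fit was chosen after seeing the data. Without adults Henmt1 over all ages was -0.61 and the ratio of Tex15 to Ddx4 1.79.

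With a replicate block, Henmt1 at 0 d.p.p. was called (1.01), as were Mael (-3.50) and Tex15 (-2.52) at 13 d.p.p., and no other call of the 3 genes changed. In newborns the genotypes share no code prefix, so the block there rests on the replicate number alone and adds no support to that call. Over all genes the block gave 1394 calls against 316 in newborns, and 477 against 16 at 13 d.p.p. Pairing the replicate numbers crosswise, chosen after seeing the data, gave 2087 calls against 583 at 9 d.p.p., with 7619 against 5637 at 21 d.p.p.

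Leaving out 1 library at a time, the value ran from 0.64 to 1.45 for Henmt1 at 0 d.p.p., -1.17 to -1.13 for Henmt1 at 9 d.p.p. (not called without either Mov10l1-/- replicate), -4.74 to -2.50 for Mael and -3.01 to -1.91 for Tex15 at 13 d.p.p., and -1.86 to -1.37 for Henmt1 at 21 d.p.p. For steps, it ran from -0.91 to -0.09 for WT Henmt1 from 0 to 9 d.p.p., 2.10 to 3.14 for WT Mael, 0.70 to 1.74 for WT Henmt1, 0.21 to 1.36 for WT Tex15 and -3.28 to -1.11 for mutant Mael from 13 to 21 d.p.p., and 2.83 to 3.71 in WT and 3.18 to 4.21 in Mov10l1-/- for Mael from 21 d.p.p. to adults. The interaction ran from -2.59 to -1.77 for Henmt1 and -1.40 to -1.07 for Tex15 from 0 to 9 d.p.p. and from -5.79 to -3.63 for Mael from 13 to 21 d.p.p. Over all ages Henmt1 ran from -0.83 to -0.66.

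Counts of called genes moved by more than 1.5 times. DESeq2 and the fit with no filter gave, in newborns, 696 and 1321 calls, and 1064 and 1668 at the age of 9 d.p.p. They gave 267 and 431 against 16 at 13 d.p.p., 1333 and 1417 against 730 for the interaction from 0 to 9 d.p.p., 1814 and 1892 against 914 for the mutant step from 13 to 21 d.p.p. and 1612 and 1373 against 670 for that interaction. Joint fits gave 518 in newborns and 342 at 13 d.p.p., RLE factors 25 and a minimum of 10 counts in every library 4 at 13 d.p.p. All 5 libraries gave 63 at 9 d.p.p. and 246 for the interaction from 0 to 9 d.p.p. RLE factors moved the median of all genes by 0.13 and 0.27 in the WT steps from 13 to 21 d.p.p. and to adults and by -0.19 and -0.18 in their interactions, with no change in a call of the 3 genes. Leaving out 1 library gave 160 to 788 calls in newborns, 413 to 2226 at the age of 9 d.p.p. (the highest without WT replicate 2), 89 to 216 at 13 d.p.p. and 2788 to 6219 at 21 d.p.p. (the lowest without Mov10l1-/- replicate 2). For steps and interactions it gave 210 to 828 for the interaction from 0 to 9 d.p.p., and from 13 to 21 d.p.p. 787 to 2554 against 2107 in WT, 278 to 586 in Mov10l1-/- and 143 to 1090 for the interaction. From 21 d.p.p. to adults it gave 5237 to 6441 against 7946 in WT, 730 to 937 against 2170 in Mov10l1-/- and 2964 to 3972 against 4944 for the interaction. With RLE factors the WT step from 21 d.p.p. to adults split into 4628 higher and 2951 lower calls against 3958 and 3988. The causes were not tested. Depth limits the precision of Henmt1 at 13 d.p.p., with 13 to 27 counts in a library.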
